A study of Mus musculus with 3 samples.

Results

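The genes described here encode fibroblast growth factors (FGFs), platelet-derived growth factors (PDGFs), vascular endothelial growth factors (VEGFs), several ligands and receptors of the EGF, HGF and KIT systems, and feedback inhibitors that their signalling induces. The rule that takes them uses symbols and no measured value: 27 rows of the count table carry an FGF or FGF receptor symbol and 24 further genes were listed by name, which together form 51 of the 21782 genes in the table. RNA-seq was carried out on WT mouse embryo fibroblasts (MEFs), isolated from E12.5 embryos and grown as asynchronous cultures in medium with 20% FBS. The libraries come from 3 clones, with 1 library per clone and no treatment or mutant, so the samples form 1 group and the only comparisons are between genes and between clones. No source states whether the clones came from different embryos, and p-values between them measure only differences between libraries, part of which may be technical.

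These growth factors act by bringing receptor tyrosine kinases together at the cell surface. The activated kinases recruit adaptor proteins, switch on RAS and the ERK kinase cascade, and drive proliferation, migration and survival. Fibroblasts are a classical target of PDGF and FGF and a source of ligands that act on neighbouring epithelium and vessels. ERK signalling in turn induces Sprouty proteins and the phosphatase DUSP6, which dampen the pathway.

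Levels are given as counts of a gene per 1000000 counts (CPM), after TMM scaling of the libraries, and as mean ± SD over the 3 clones. Where 3 values are listed for a gene, they are those of clones 1, 2 and 3 in this order. Libraries held 22594316 to 25261357 counts. The limit that no count allows is 3 counts, which equals 0.119 to 0.133 CPM, and covers counting error only. A gene was called expressed if no clone was below 1 CPM. Of the 51 genes, 31 were expressed (60.8%), against 52.2% of all genes in the table. The labelled cell type was met by abundant Col1a1 (27713 ± 3778 CPM) and Vim (4002 ± 202 CPM), although Dcn reached only 7.73 ± 2.62 CPM and Lum 2.03 ± 1.19 CPM. The clones also differed in other cell markers. The 7 macrophage genes measured summed to 308, 1468 and 249.6 CPM, led by Lyz2 and Csf1r. All 7 (these and C1qa, C1qb, C1qc, Cd68 and Tyrobp) were highest in clone 2 and differed by at least 2-fold. The 6 proliferation genes summed to 368, 723 and 609 CPM, led by Mki67 and Top2a. All 6 were lowest in clone 1, and Top2a, Aurkb and Plk1 differed by at least 2-fold. In such bulk samples, fewer cells of a type and less RNA per cell cannot be told apart.

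**Figure D1:**
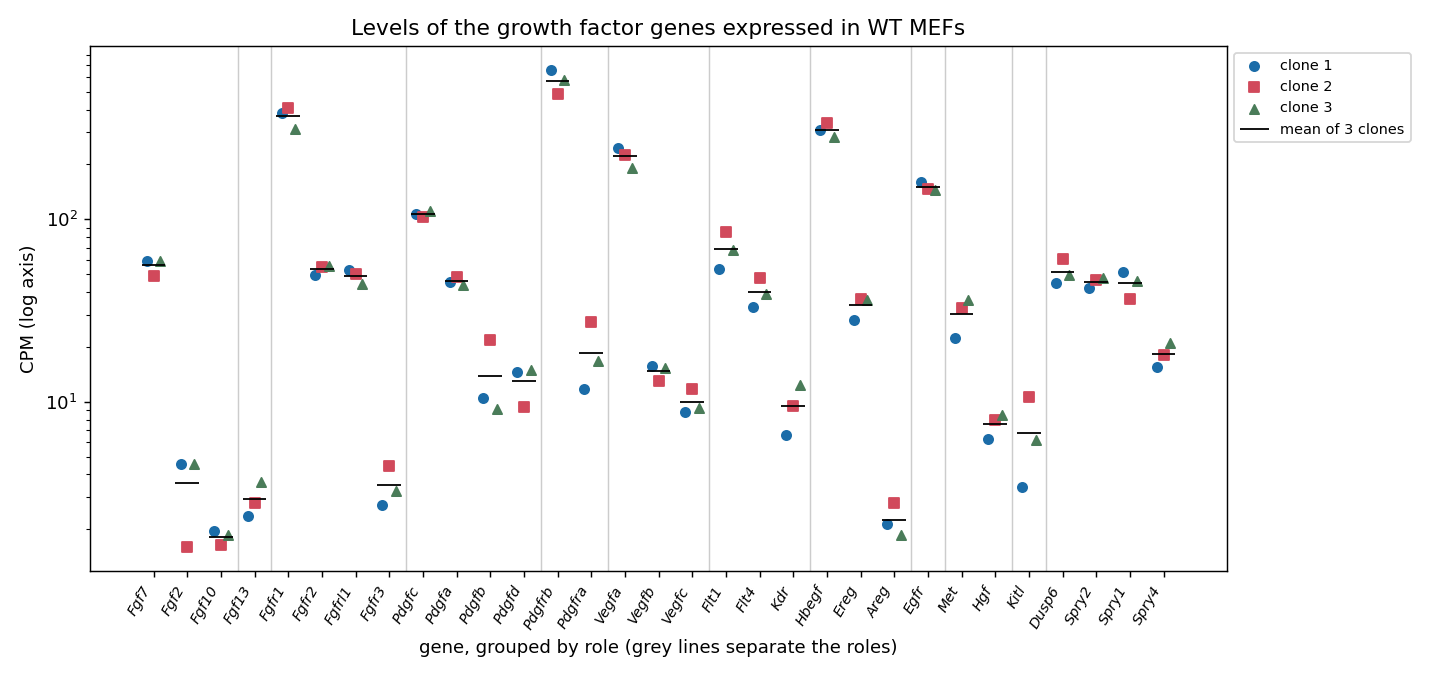
Level of each of the 31 expressed genes in CPM on a log axis, with 1 symbol per clone and a bar at the mean of the 3 clones; grey lines separate groups of genes by role. Pdgfrb, Fgfr1, Hbegf, Vegfa, Egfr and Pdgfc lie above 100 CPM, and Pdgfb, Pdgfra, Kitl and Fgf2 show the widest gaps between clones.

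Ligands of the FGF family were mostly silent, and a single gene, Fgf7, carried most of the signal. Of the 22 FGF genes, including the endocrine and intracellular members, 4 were expressed. Fgf7, also known as keratinocyte growth factor, which acts from mesenchyme on epithelium, was at 59.3, 49.1 and 59.5 CPM. The gene lies on chromosome 2 at 126034658 to 126091185 (GRCm38, plus strand). Its mean of 56.0 ± 5.92 CPM was the highest of the family in every clone. Fgf10, its closest relative in function, was far lower at 1.97, 1.64 and 1.86 CPM. Levels of different genes were compared per kb of the annotated transcript with the longest coding sequence. On this scale Fgf7 took 90.2% ± 1.01 (SD, n = 3) of the summed level of the 15 secreted FGFs of the FGF1, FGF4, FGF7, FGF8 and FGF9 groups. Fgf7 was 47.2 ± 1.73 times as abundant as Fgf10 per kb.

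Fgf2, basic FGF, which lacks a classical secretion signal, was low and uneven, with 114, 36 and 115 counts, or 4.59, 1.60 and 4.55 CPM. Clones 1 and 3 were alike and clone 2 stood below them. The intracellular Fgf13, which binds voltage-gated sodium channels rather than FGF receptors, had 59, 63 and 92 counts, or 2.94 ± 0.646 CPM. The other 18 FGF genes stayed under 1 CPM. Of these, Fgf3, Fgf4, Fgf6, Fgf8 and Fgf20 had 0 counts in all clones, while Fgf5, Fgf11, Fgf18 and Fgf21 had enough counts to be tested. The remaining genes, Fgf1, Fgf9, Fgf12, Fgf14, Fgf15, Fgf16, Fgf17, Fgf22 and Fgf23, had at most 10 counts in any clone. Fgf18 had 17, 13 and 20 counts, and Fgf21, a hormone-like FGF, had 22, 7 and 16 counts. The co-receptors Kl and Klb, which endocrine FGFs need, had 0 counts in every clone.

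The Fgf2 locus (chromosome 3, 37348346 to 37410108 in GRCm38, plus strand) shares sequence with the antisense gene Nudt6, which covers 9.44% of its exon length. Nudt6 itself had 63, 57 and 42 counts, and without a known strand setting reads from the shared stretch cannot be assigned. The sequence around the Fgf2 start is shown because of the 5 secreted FGF genes with enough counts to be tested, it alone differed between clones by at least 2-fold. Among those left out for low counts, Fgf1 (9, 4 and 8 counts), Fgf9 (10, 4 and 4) and Fgf16 (6, 0 and 1) also varied. It spans 250 bases before to 50 after the RefSeq start (chr3:37348403-37348702, plus strand, GRCm38.p6), and capitals mark the match to the GC box letters GGGCGG.

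Fgf2: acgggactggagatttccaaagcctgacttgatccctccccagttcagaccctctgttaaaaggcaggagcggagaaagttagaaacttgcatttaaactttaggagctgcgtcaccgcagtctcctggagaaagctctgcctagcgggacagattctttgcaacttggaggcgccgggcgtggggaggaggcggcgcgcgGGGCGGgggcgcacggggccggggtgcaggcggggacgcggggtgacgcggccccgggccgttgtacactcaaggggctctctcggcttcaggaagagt

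Of the 5 FGF receptor genes, Fgfr1 was dominant. Fgfr1 was at 381, 409 and 312 CPM, a mean of 367 ± 50.1 CPM. Fgfr2, the receptor whose epithelial splice form binds FGF7, was at 49.5, 55.2 and 55.8 CPM. Fgfr1 lies on chromosome 8 at 25513654 to 25575718 (plus strand). Counts per gene do not distinguish splice forms, and Esrp1, the epithelial regulator of FGFR2 splicing, had 0 counts in all clones. Fgfr3 reached only 3.49 ± 0.896 CPM, and Fgfr4 had 4, 12 and 13 counts. Among the kinase-bearing receptors, Fgfr1 made up 80.9% ± 2.77 of the level per kb and Fgfr2 18.1% ± 2.65 (SD, n = 3). Per kb of all annotated exons, these shares were 86.4% ± 2.13 and 12.2% ± 1.91. Fgfrl1, an FGF-binding receptor without a kinase domain, was at 52.8, 50.3 and 44.1 CPM. Per kb it was above Fgfr2 in every clone, with Fgfr2 at 0.77 ± 0.11 of its level, or 0.30 ± 0.04 per kb of all annotated exons. The exons of Fgfr3 overlap an antisense gene over 13.9% of their length, so its low count is less certain.

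Both PDGF receptor genes were expressed, at very unequal levels. Pdgfrb was the most abundant of all 51 genes in CPM, at 661, 486 and 580 CPM. Pdgfra, which marks many fibroblast lineages in the embryo, was at 11.8, 27.3 and 16.8 CPM. The Pdgfra share of the counts of both genes was 1.75% (95% Wilson interval 1.56 to 1.96), 5.32% (4.92 to 5.74) and 2.81% (2.56 to 3.09). These intervals cover counting error only and do not overlap between clones. Per kb, Pdgfrb exceeded Pdgfra by 70.8, 22.4 and 43.5 times. The order was thus the same in every clone, while the size of the gap differed between clones by more than counting error. All 5 pericyte markers were expressed, with a sum of 427, 379 and 419 CPM. Most of it came from Cspg4, a mural cell proteoglycan, which was steady at 356 ± 5.73 CPM. The pericyte gene Rgs5 had 283, 26 and 323 counts and Notch3 1433, 556 and 1043 counts, both lowest in clone 2. Abcc9 (39, 24 and 36 counts) and Kcnj8 (32, 34 and 30 counts) were close to the threshold of 1 CPM. The part of pericytes in the Pdgfrb level was not tested.

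Antisense genes cover 6.21% of the Pdgfra exon length. Pdgfra lies on chromosome 5 at 75152292 to 75198215. Its start region (chr5:75152001-75152300, plus strand, GRCm38.p6, from RefSeq) is shown because the gene was low beside Pdgfrb and differed between clones. Its RefSeq start lies 3648 bases from that of the transcript used for length. The window held no match to any of the 6 motifs searched and is printed wholly in lower case.

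Pdgfra: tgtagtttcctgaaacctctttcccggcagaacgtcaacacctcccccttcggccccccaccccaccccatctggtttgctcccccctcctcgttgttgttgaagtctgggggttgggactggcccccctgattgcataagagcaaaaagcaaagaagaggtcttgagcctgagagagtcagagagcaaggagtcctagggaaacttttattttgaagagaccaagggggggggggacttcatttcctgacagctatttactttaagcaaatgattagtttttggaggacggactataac

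All 4 PDGF ligand genes were expressed. Pdgfc, whose product is activated by proteolysis and binds mainly PDGFRA homodimers, was at 107, 103 and 111 CPM. Pdgfa, a further ligand of PDGFRA, was at 45.4, 48.5 and 43.9 CPM. Per kb the order of the 2 genes was not resolved, with a Pdgfa to Pdgfc ratio of 0.98 ± 0.09 that was above 1 in clone 2 only. Per kb of all annotated exons the ratio was 0.70 ± 0.06, and the exons of Pdgfa overlap an antisense gene over 26.1% of their length. Neither gene differed between clones by the test described below. Pdgfb (chromosome 15, 79995874 to 80014977, minus strand), whose product binds both PDGF receptors, was at 10.5, 21.9 and 9.15 CPM, and Pdgfd, which also binds PDGFRB, at 14.7, 9.40 and 14.9 CPM. The order of these 2 genes was not the same in all clones, since Pdgfb was below Pdgfd per kb in clones 1 and 3 and above it in clone 2. Together, Pdgfa and Pdgfc took 83.6%, 82.7% and 84.0% of the PDGF ligand level per kb.

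**Figure D2:**
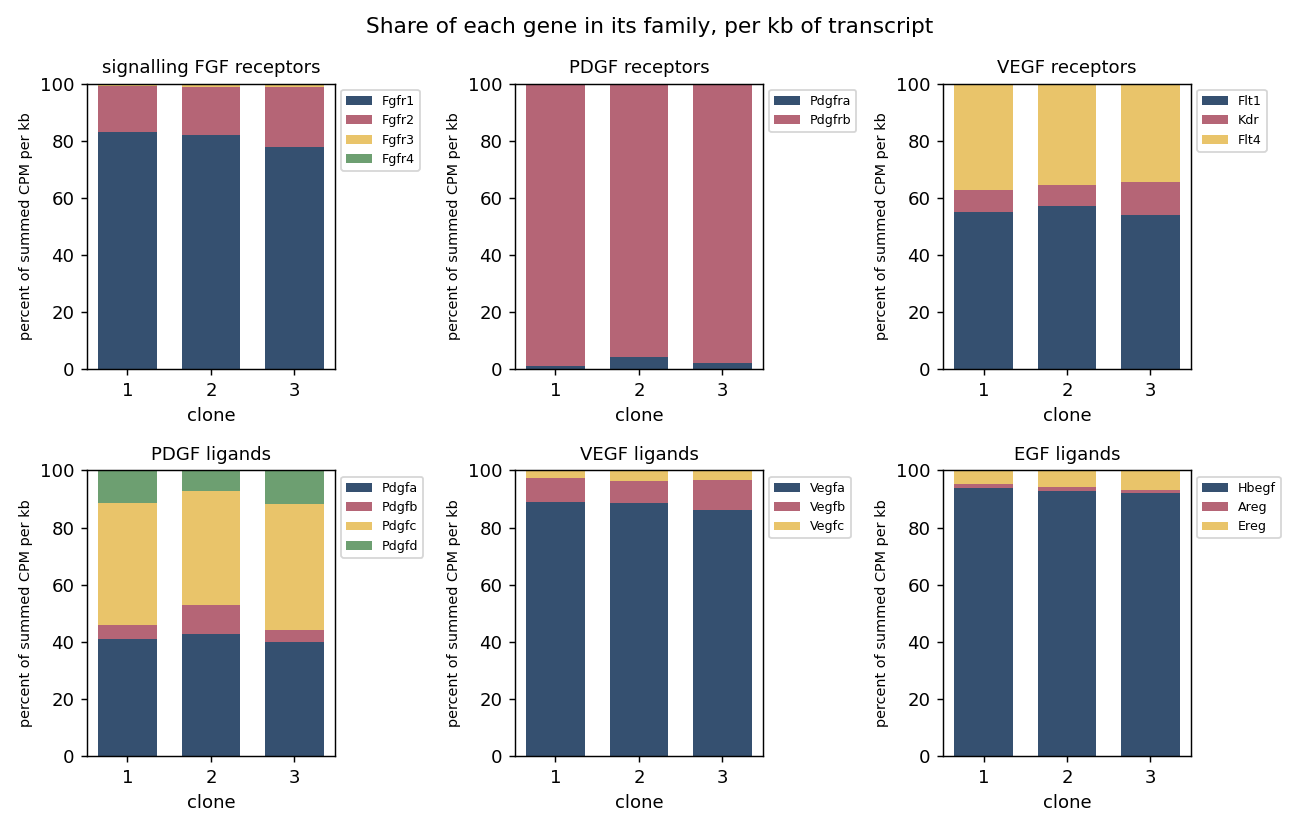
Share of each gene in the summed CPM per kb of its family, in percent, stacked in 1 bar per clone and 1 panel per family. Fgfr1, Pdgfrb, Vegfa and Hbegf make up most of their families in all clones, whereas Pdgfa and Pdgfc have similar shares.

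Among VEGF ligands, Vegfa, the main angiogenic factor and a hypoxia-induced gene, was far above the others, at 247, 226 and 192 CPM. Vegfb was at 14.7 ± 1.47 CPM and Vegfc, a lymphangiogenic ligand of FLT4 and KDR, at 9.99 ± 1.58 CPM. Per kb, Vegfa took 87.7% ± 1.52 of the level of the 3 ligands, and 79.5% ± 2.24 per kb of all annotated exons. Of the genes outside the rule, Pgf, the placental growth factor that binds FLT1, was at 8.25 ± 0.808 CPM, and Figf, which encodes VEGFD, at 12.4 ± 3.08 CPM.

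All 3 VEGF receptor genes were expressed as well. Flt1, which encodes VEGFR1 and a soluble decoy form, had 1331, 1923 and 1708 counts. Flt4, which encodes VEGFR3 of lymphatic endothelium, had 818, 1079 and 985 counts. Kdr, which encodes the main signalling receptor VEGFR2, had 163, 214 and 314 counts. All 3 were lowest in clone 1, and Flt1 and Flt4 were highest in clone 2 whereas Kdr was highest in clone 3. Per kb, Flt1 was 1.56 ± 0.07 times Flt4 and Flt4 was 4.17 ± 1.04 times Kdr, in this order in every clone. Per kb of all annotated exons, Flt1 and Flt4 were not separated, with a ratio of 1.05 ± 0.05. The co-receptor Nrp1 was at 822 ± 122 CPM and Nrp2 at 122 ± 12.3 CPM.

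Apart from Emcn, markers of endothelium, in which these receptors are best known, had at most 20 counts in any clone. Tie1 and Cldn5 had 0 counts in all clones, Sox17 had at most 1 count, and Cdh5 had 4, 6 and 2 counts. Pecam1 had 6, 15 and 6 counts, Tek 9, 6 and 9 counts and Esam 19, 12 and 20 counts. None of the 8 markers was expressed in every clone. The sum over these 8 genes was 13.9, 1.95 and 11.05 CPM, led in clones 1 and 3 by Emcn, which had 307, 4 and 242 counts. Emcn was lowest in clone 2, where Flt1 and Flt4 were highest. Macrophage genes were also highest in clone 2, and their part in the Flt1 level was not tested.

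**Figure D3:**
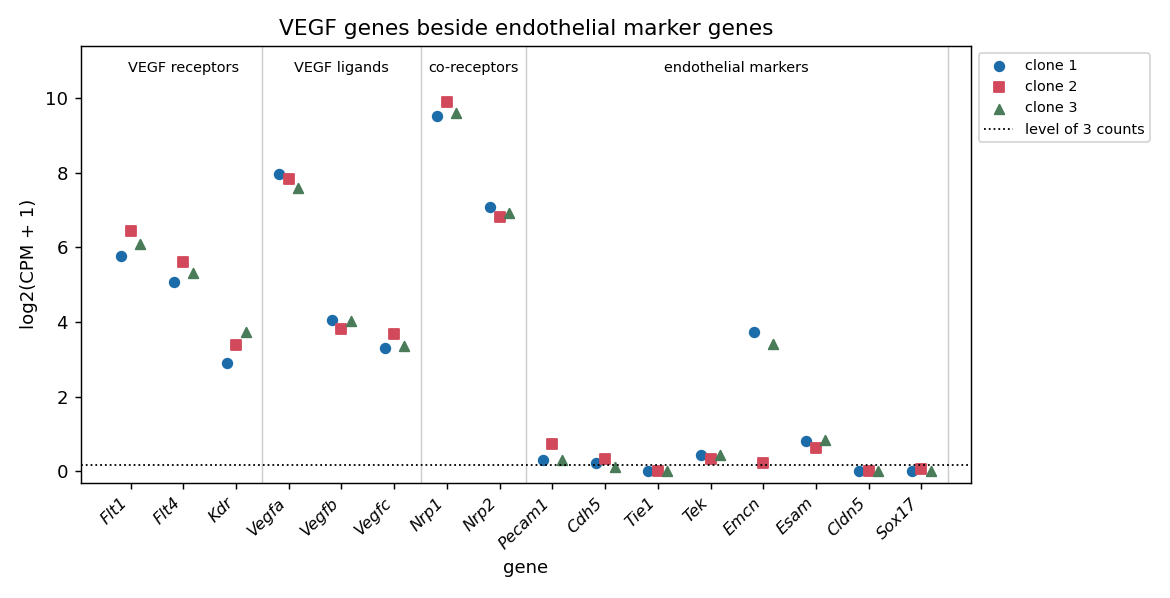
Level of VEGF receptors, VEGF ligands, neuropilin co-receptors and 8 endothelial marker genes as log2(CPM + 1), with 1 symbol per clone and a dotted line at the level of 3 counts. The receptors lie well above the dotted line in all clones. The endothelial markers other than Emcn lie below the receptors, and are under, at or somewhat above the line.

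Of the EGF family, the receptor and 3 ligands belonged to the set. Egfr was even between clones, at 159, 146 and 146 CPM. Hbegf, a membrane-anchored ligand released by proteolysis, was at 307, 339 and 284 CPM. Ereg, epiregulin, was at 28.1, 36.8 and 36.4 CPM, and Areg, amphiregulin, at 2.13, 2.79 and 1.86 CPM. Per kb, Hbegf was 16.2 ± 2.75 times Ereg (7.96 ± 1.35 with all annotated exons), and Ereg was 4.50 ± 1.09 times Areg, in this order in every clone. With the transcript used, Hbegf had the highest mean level of all 51 genes, at 130 ± 11.7 CPM per kb, followed by Vegfa at 112 ± 14.2 and Pdgfrb at 106 ± 16.1. Per kb of all annotated exons, Pdgfrb ranked first and Hbegf second. The 11 other EGF family genes held 3 that were expressed, among them Erbb2 at 84.5 ± 3.47 CPM and Nrg1 at 15.5 ± 4.14 CPM. Erbb4 and Nrg4 had 0 counts.

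For HGF, a factor secreted by mesenchyme, and its receptor MET, both genes were expressed. Hgf had 156, 179 and 214 counts and Met 556, 735 and 914 counts, each lowest in clone 1 and highest in clone 3. Per kb, Met was 2.03 ± 0.19 times Hgf, and 3.72 ± 0.35 times per kb of all annotated exons. Of 8 epithelial markers, in whose cells Met is best known, only Krt18 was expressed, at 3.68 ± 1.41 CPM, and it was also highest in clone 3, with 69, 67 and 134 counts. The list summed to 3.46, 3.59 and 7.09 CPM, and Krt8 had 6, 9 and 28 counts. Epcam had 5, 1 and 3 counts and Grhl2 1, 0 and 0 counts, both highest in clone 1. Cdh1 had 3, 4 and 5 counts, Krt5 1, 0 and 4, Krt14 1, 0 and 5, and Esrp1 had 0. Whether epithelial cells have a part in the Met level was not tested.

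For the KIT system, the ligand gene Kitl, stem cell factor, was expressed, but the receptor gene Kit was not. Kitl had 85, 240 and 157 counts, or 3.42, 10.6 and 6.22 CPM. Kit was low and even, with 13, 12 and 14 counts. Of the mast cell markers, in whose lineage Kit is a defining gene, Cpa3, Tpsb2 and Fcer1a had 0 counts, Mcpt4 and Hdc had 1 count in each clone, and Ms4a2 had 11, 15 and 9 counts, close to Kit. The list summed to 0.523, 0.754 and 0.436 CPM. The melanocyte and Schwann cell markers summed to 5.68, 5.90 and 4.67 CPM, with Dct and Tyrp1 at 0. Per kb, Kitl was 6.04, 18.5 and 10.4 times Kit, a mean of 11.6 ± 6.31, or 19.0 ± 10.3 per kb of all annotated exons. Kitl lies on chromosome 10 at 100015630 to 100100416. Its start region (chr10:100015571-100015870, plus strand, GRCm38.p6, from RefSeq) is shown because the gene had the widest fold range between clones of those called. Capitals mark matches to the TATA box letters TATAAA, the ETS letters CCGGAAG and the GC box letters GGGCGG or their reverse complement, where 2 GC box matches overlap.

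Kitl: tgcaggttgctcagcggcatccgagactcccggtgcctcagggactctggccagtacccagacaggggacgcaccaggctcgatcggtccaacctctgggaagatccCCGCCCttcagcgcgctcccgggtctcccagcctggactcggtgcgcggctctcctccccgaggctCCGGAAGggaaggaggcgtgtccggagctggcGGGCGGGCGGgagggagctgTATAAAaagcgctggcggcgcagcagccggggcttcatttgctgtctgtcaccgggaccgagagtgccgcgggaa

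All 4 feedback inhibitor genes were expressed. Dusp6, the ERK phosphatase, was at 44.7, 60.4 and 49.4 CPM. Spry2 was at 41.9, 46.7 and 47.9 CPM and Spry1 at 51.3, 36.5 and 46.01 CPM. Spry1 was lowest in clone 2, and Spry2 in clone 1. Spry4 was lower, at 15.5, 18.1 and 21.1 CPM. Per kb, Spry4 was below Spry1 and Spry2 in every clone, Spry2 was 1.39 ± 0.31 times Spry1, and the order of Dusp6 and Spry1 differed between clones. An antisense gene shares 18.3% of the 86-nt stretches of the Spry1 exons, so the count of Spry1 is less certain.

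Downstream of the receptors, all 17 adaptor and kinase genes of the RAS-ERK pathway that were measured were expressed, led in CPM by Ptpn11, the SHP2 phosphatase, at 213 ± 15.2 CPM and the adaptor Shc1 at 197 ± 16.9 CPM. By the test described below, 13 of these 17 differed between clones, against 62.2% of all genes tested, and 0 by at least 2-fold, against 9.26%. Of 16 other ERK feedback and target genes, 15 were expressed, with Egr1 at 243 ± 47.9 CPM and Fos at 87.9 ± 45.2 CPM as the highest. Of 15 tested, 12 differed between clones, set beside the same 62.2%, and 1 by at least 2-fold, beside 9.26%. This gene was Fos, with 138, 50.6 and 75.1 CPM. Fos was thus lowest in clone 2, as Fgf2 was, whereas 6 of the 15 expressed genes of this list were highest there.

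To ask which genes differed between clones by more than counting error, the counts of each gene were compared with the scaled library sizes by a Pearson chi-square test, adjusted by the Benjamini-Hochberg method over the 12608 genes with a total of at least 30 counts. This test compares 3 libraries and cannot separate a clone from its culture. Of the 51 genes, 36 were tested. The other 15 were the 5 FGF genes without counts and 10 with fewer than 30 counts in total, among them Fgf1, Fgf9 and Fgfr4. By this test 26 of 36 genes (72.2%) differed between clones, against 62.2% of all genes tested, and 4 of 36 (11.1%) by at least 2-fold, against 9.26%. The median SD of log2(CPM + 1) between clones was 0.21 over the 36 genes and 0.15 over all genes tested. Of the 26 genes, 15 were lowest in clone 1 (57.7%, against 42.9% of all genes that differed).

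The 4 genes that differed by at least 2-fold were Pdgfb, Pdgfra, Kitl and Fgf2. Of these, 3 were highest in clone 2 (8.33% of the genes tested, against 5.49% of all genes), and Fgf2 was lowest there (2.78%, against 2.8%). Pdgfb had 260, 493 and 231 counts, so that clone 2 stood above the other clones. It was 2.39-fold higher in clone 2 than in clone 3 (adjusted p = 3.43e-36). Without clone 2 its fold was 1.14 (adjusted p = 0.226). Pdgfra had 292, 615 and 424 counts, with clone 1 lowest and clone 2 highest. Its fold was 2.32 (adjusted p = 2.07e-34), and 1.43 without clone 2 and 1.62 without clone 1, where the difference remained past the threshold. Kitl was ordered as Pdgfra was. The fold of Kitl was 3.11 (adjusted p = 3.39e-20), and 1.82 without clone 2 and 1.71 without clone 1. Fgf2 was 2.87-fold lower in clone 2 than in clone 1 (adjusted p = 2.66e-08), and clones 1 and 3 differed by 1.01-fold (adjusted p = 0.975).

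These calls are set against counting error alone. An alternative added to the variance the spread that edgeR fits to genes of similar level. That spread was estimated from the same 3 clones and so includes the differences between them. It can only ask whether a gene varied more than genes of similar level. With it, 0 of the 36 genes were called at an adjusted p under 0.05, against 274 of the 12608 genes (2.17%). An unadjusted p under 0.05 was reached by 3 of the 36 genes, and the share of all genes at that threshold was not computed. Under this alternative, chosen after seeing the data, the adjusted p was 0.0614 for Pdgfb, 0.13 for Pdgfra, 0.258 for Kitl and 1 for Fgf2.

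**Figure D4:**
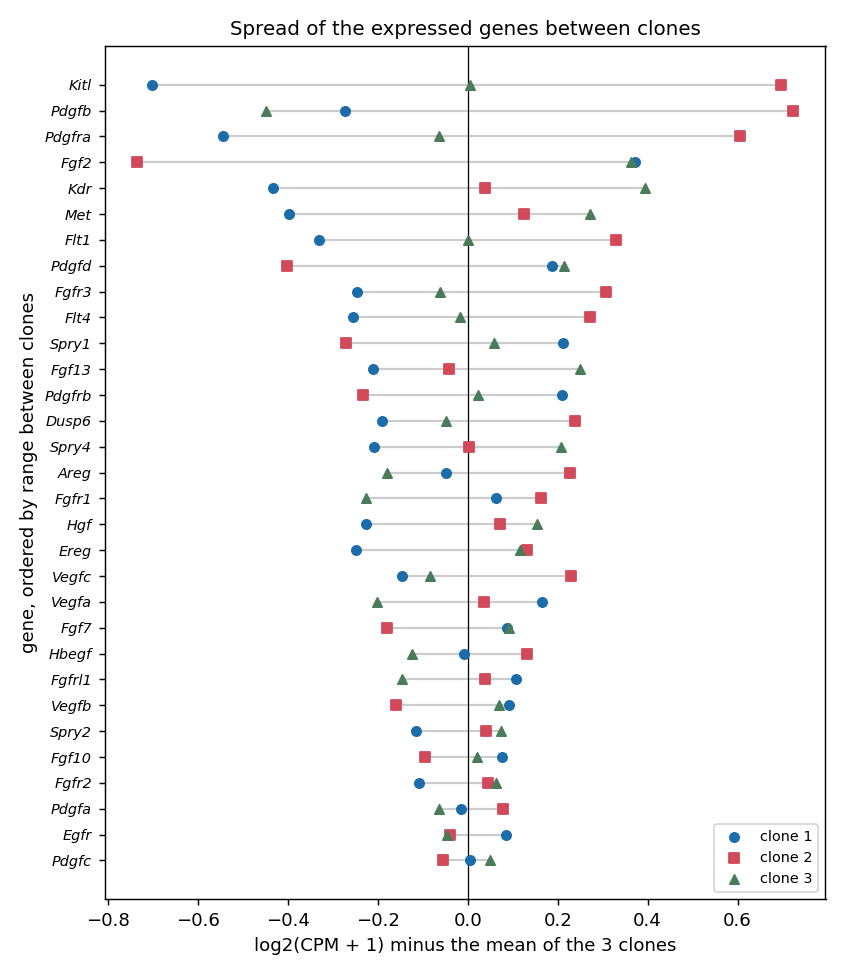
Values of log2(CPM + 1) in each clone, less their mean, for the 31 expressed genes, ordered by the range between clones, which a grey line spans. Kitl, Pdgfb, Pdgfra and Fgf2 have the widest ranges, and Pdgfc, Egfr and Pdgfa the narrowest.

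The order of the clones in 3 marker lists is given beside these genes. With 3 clones few orders are possible, and 37.9% of all genes that differed were highest in clone 2. The macrophage list deviated from the mean over clones by -0.71, 1.69 and -0.97 on the log2 scale in clones 1, 2 and 3, and Pdgfb by -0.27, 0.72 and -0.45, the same order of clones. The proliferation list deviated by -0.60, 0.43 and 0.18, and Pdgfra by -0.54, 0.61 and -0.06 and Kitl by -0.70, 0.70 and 0.01, again in the same order as the list. Fgf2 moved the other way, by 0.37, -0.73 and 0.36. The fibroblast list deviated by 0.23, -0.03 and -0.16, highest in clone 1 and lowest in clone 3. None of Pdgfb, Pdgfra, Kitl and Fgf2 had this order of clones. Rgs5, Notch3 and Emcn, whose counts are given above, were lowest in clone 2 as Fgf2 was, and so were Abcc9, Tek and Esam. Of the same pericyte and endothelium lists, Kcnj8, Pecam1 and Cdh5 were highest in clone 2, and Cspg4 was steady. The part of macrophages, cycling cells, pericytes and endothelium in these differences was not tested.

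**Figure D5:**
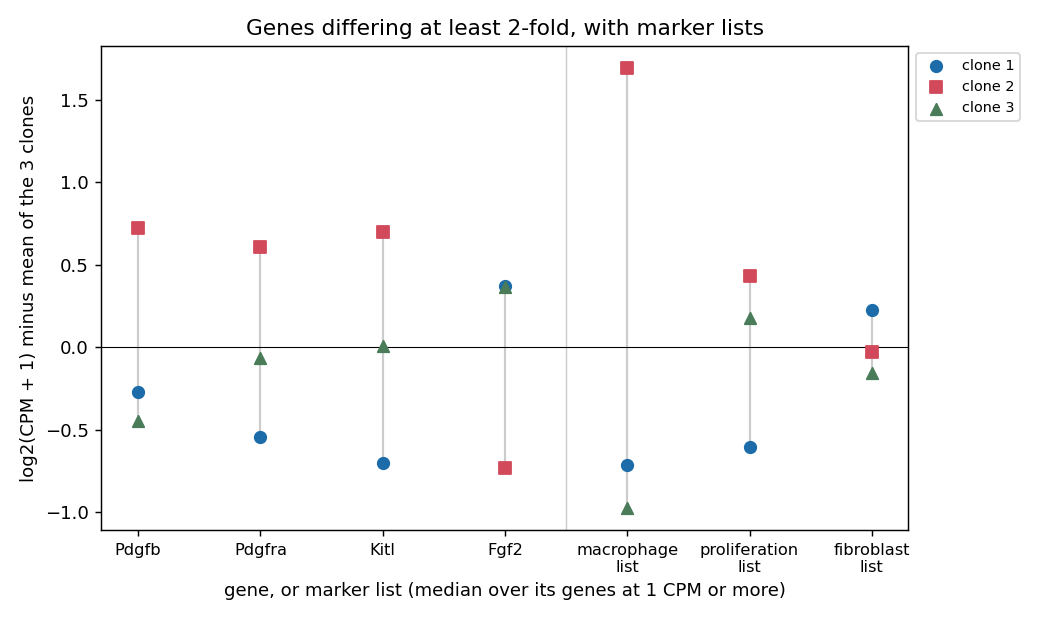
Values of log2(CPM + 1) less the mean over clones, with 1 symbol per clone, for the 4 genes that differed by at least 2-fold (left) and as the median of 3 marker lists (right). In clone 2, Pdgfb, Pdgfra and Kitl lie above their means together with the macrophage and proliferation lists, and Fgf2 lies below its mean. The fibroblast list lies close to its mean in clone 2 and is highest in clone 1.

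Among the 31 expressed genes, Pdgfc, Egfr and Pdgfa had the narrowest ranges between clones. Of the 36 genes tested, 10 did not pass the threshold of the chi-square test. Pdgfc varied by 1.07-fold (adjusted p = 0.0588) and Pdgfa by 1.10-fold (adjusted p = 0.0874). Vegfb (adjusted p = 0.0525), Areg (adjusted p = 0.127), Fgf10 (adjusted p = 0.739) and Kit (adjusted p = 0.99) also missed it, as did Fgf5, Fgf11, Fgf18 and Fgf21. A p that misses the threshold does not show that the clones were alike. Egfr varied by 1.10-fold and passed the threshold, at 3297 to 3962 counts per clone (adjusted p = 1.19e-04). The difference of Fgf13 between clones (1.53-fold) was close to the threshold (adjusted p = 0.0469).

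The start regions of 39 of the 51 genes were searched on both strands for 6 short motifs, in RefSeq windows of 250 bases before to 50 after the start. No window was available for Pdgfrb, Fgfr1, Hbegf, Pdgfb, Ereg, Spry4, Fgf1, Fgf8, Fgf15, Fgf16, Fgf17 and Fgf20. The shares below thus leave out Pdgfrb, Fgfr1 and Hbegf, the most abundant genes of the set in CPM. GC box letters (GGGCGG) were found for 26 of the 39 genes (66.7%), against 35.7% of all 32851 windows, and the median GC content was 62.7% against 52.7%. The CCAAT letters were found for 10 genes (25.6%, against 37.4%), TATAAA in 6 (15.4%, against 13.6%) and the ETS letters CCGGAAG in 3 (7.69%, against 8.86%). The AP-1 letters TGANTCA were found for 2 genes (5.13%, against 7.81%). The CRE letters TGACGTCA were found for 2 genes, Flt1 and Areg (5.13%, against 1.79%). TATAAA was found in the windows of Flt1, Kitl, Areg, Pdgfd, Fgf5 and Fgf21. For members with more than 1 window, the one nearest the start of the transcript used for length was searched. The share over all windows instead counts each window of every gene, so the 2 shares differ in unit. These matches describe letters in a window and were not tested for binding.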

How the data were processed

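RNA-seq counts of 3 WT MEF clones were used. The authors aligned 86-nt single-end reads with TopHat2 2.0.0 (with SAMtools 0.1.16 and Bowtie 0.12.7) and deposited raw counts per gene from HTSeq. Their methods name mm10 and the processing notes mm9. The annotation, HTSeq version and strand setting are not given in the sources used here. The table carries symbols only. Positions and lengths came from GENCODE M21 (GRCm38), where 21721 of 21782 symbols matched.

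CPM used TMM sizes (edgeR 4.0.16, R 4.3.3). A gene with a total of at least 30 counts was tested between clones with a chi-square test with 2 degrees of freedom (scipy 1.17.1), with Benjamini-Hochberg adjustment. The test was run on counts simulated with counting error only, which cannot show its false calls where clones vary by more. No quasi-likelihood test could be fitted with 1 group. An exact sign-flip test of 3 clones cannot go below 0.25, so the order of genes is given by clones. Alternatives were DESeq2 1.42.0 size factors, total counts, other filters, thinning, other lengths and leaving out each clone. Hras and Adgre1 of the gene lists were not analysed here. All members are named by role. Of other listed genes, the text names the 2 highest in CPM, those differing at least 2-fold and markers that bear on a cell type, and some were named after their values were seen. The members and lists were chosen with earlier results of these data known.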

Additional observations from a re-analysis of the deposited data

How the results depend on the processing

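The number of expressed genes, 31 of 51, stayed at 31 with DESeq2 size factors, with total counts and without any of the clones. It was 34 at 0.5 CPM, 39 with more than 3 counts in every clone, 26 at 1 CPM per kb, and 29 without the genes that share over 10% of their 86-nt stretches with another gene, the last chosen after seeing the data. The number that differed between clones, 26, lay between 18 (without clone 1) and 23 (without clone 3) when a clone was left out, and was 25 to 28 under other size factors, filters and thinning. The trended dispersion was an alternative chosen after seeing the data and estimated from the same clones. With it added, the number that differed was 0, and the number that differed by at least 2-fold was 0 as well. That number, 4, ranged from 0 (without clone 2) to 4 (without clone 3), and was 2 without clone 1. Over all genes tested, 7836 differed between clones, 3986 to 6640 when a clone was left out (3986 without clone 1) and 274 with the trended dispersion. At least 2-fold, these were 1167, 234 (without clone 2) to 922, and 268, with 605 for folds of CPM + 1. Without a filter the number of growth factor genes at least 2-fold was 5, with Fgf16 added. Per kb of all annotated exons, 18 of the 31 expressed genes moved by more than their SD between clones. No paired analysis was possible because the samples form 1 group. Depth limits the FGF genes with few or 0 counts, which may be present below the level of 3 counts.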
